A study of Mus musculus with 6 samples.

Results

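Semaphorins, ephrins and netrins, the extracellular guidance ligands, and their plexin, neuropilin, Eph and Unc5 receptors were followed in MICT1 KO and Scr BAT cells by RNA-seq. Members were taken by a gene symbol pattern with no cut-off on expression, but the choice was made with earlier results of these data known. An Eph receptor gene that fits the pattern is not reported here. Of the 13283 genes with values, 45 others carried such a symbol. Of these, 44 are guidance genes (28 ligands and 16 receptors), and Unc50, a Golgi membrane protein gene whose symbol shares its letters with the netrin receptors, was kept apart. All 6 libraries were made from a line of immortalized mouse brown preadipocytes with stable Cas9, at day 6 of adipogenic differentiation and after 6 h of 10 µM forskolin (FSK), an adenylyl cyclase activator that raises cAMP. The 3 Scr libraries, given the genotype WT in the labels, carried a scrambled sgRNA, and the 3 MICT1 KO libraries, given as MICT1-CRISPR KO, came from cells edited with sgRNAs against MICT1, a microprotein gene of brown adipocytes. The study's methods name 2 such sgRNAs used as separate pools, and the labels do not say which pool a library came from. Since MICT1 was not analysed here, the KO label was not checked on its target.

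Semaphorins are secreted or membrane-bound proteins that signal through plexins, and most secreted class 3 semaphorins need neuropilin 1 or 2 to hold the plexin in the complex. Ephrins stay on the cell surface, ephrin-A proteins by a lipid anchor and ephrin-B proteins by a transmembrane segment, and both the Eph-bearing and the ephrin-bearing cell receive a signal. Netrins are secreted, laminin-related proteins that bind DCC, neogenin and the Unc5 receptors. Best known from growing axons, these families also act in blood vessels, and in fat depots they are known from the nerves, vessels and immune cells that enter the tissue as well as from adipocytes themselves.

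Guidance genes changed in both directions in MICT1 KO cells. Of the 41 guidance genes with enough signal to test (10 or more in 3 or more libraries), 20 were higher and 11 lower in MICT1 KO at an adjusted p under 0.05, and 10 did not pass. The 31 calls are 75.6% of the guidance genes tested, where 56.9% of all 12507 tested genes were called (28.5% higher and 28.3% lower). A change of at least 2-fold was found for 8 higher and 5 lower guidance genes, against 13.7% of all tested genes (7.99% higher and 5.76% lower). The 3 MICT1 KO values lay above all 3 Scr values for 20 guidance genes, below them for 12, and overlapped them for 9. Groups did not overlap for 62.0% of all tested genes (MICT1 KO above for 30.9% and below for 31.2%). With a minimum of 1.8-fold and an unadjusted p under 0.05, 11 guidance genes were higher and 6 lower, against 10.1% and 7.39% of all tested genes. The study's methods name the 1.8-fold minimum together with a maximum RPKM (reads per kilobase of exon, scaled to library size) of at least 4, which was not applied in these counts, and do not say whether p was adjusted. Of the 41, Unc5c, Ntn5, Sema4a and Plxnb1 reached the minimum of 10 in every library of only 1 group, so that the filter itself favoured a difference in them. Without these 4, 19 guidance genes were higher and 9 lower (7 and 3 of them at least 2-fold). The median log2 fold change was 0.29 over the 41 guidance genes and -0.01 over all tested genes. Adjusted p-values throughout are from limma-trend with Benjamini-Hochberg adjustment over all tested genes, and fold changes are on the log2(value + 1) scale, on which the change of a low gene comes out smaller than it is.

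Among the 27 ligands tested, 11 were higher, 8 were lower (6 without Ntn5 and Sema4a) and 8 did not pass. These calls are 70.4% of the ligands tested, and the median log2 fold change was 0.07. Of all tested genes 56.9% were called, 28.5% higher and 28.3% lower, and every family and list count is to be read beside these shares. Among the 14 receptors tested, 9 were higher (8 without Unc5c), 3 were lower and 2 did not pass (85.7% called, median 0.48). The 3 guidance genes under the filter, Sema4d, Plxnc1 and Epha8, had values of at most 11.1 in every library and were given no test. The difference between ligands and receptors was not tested.

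Markers of the cells in the cultures, summed as counts per 1000000 of the library total (CPM), moved between the groups as well. Of 8 brown adipocyte markers 7 had values, and all 7 were lower in MICT1 KO, with a sum of 3871 to 4590 CPM in Scr against 295.9 to 519.7 in MICT1 KO. Ucp1 and Adipoq among them passed the filter only through their Scr libraries. Preadipocyte and stromal markers, 6 of 8 with values, summed to 266.4 to 311.4 and 286.9 to 302.5, with 2 of 4 tested genes higher and 2 lower. In bulk cultures fewer cells of a type and less RNA per cell cannot be told apart. The part of the fall in adipocyte markers in the values of the guidance genes was not tested.

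**Figure D1:**
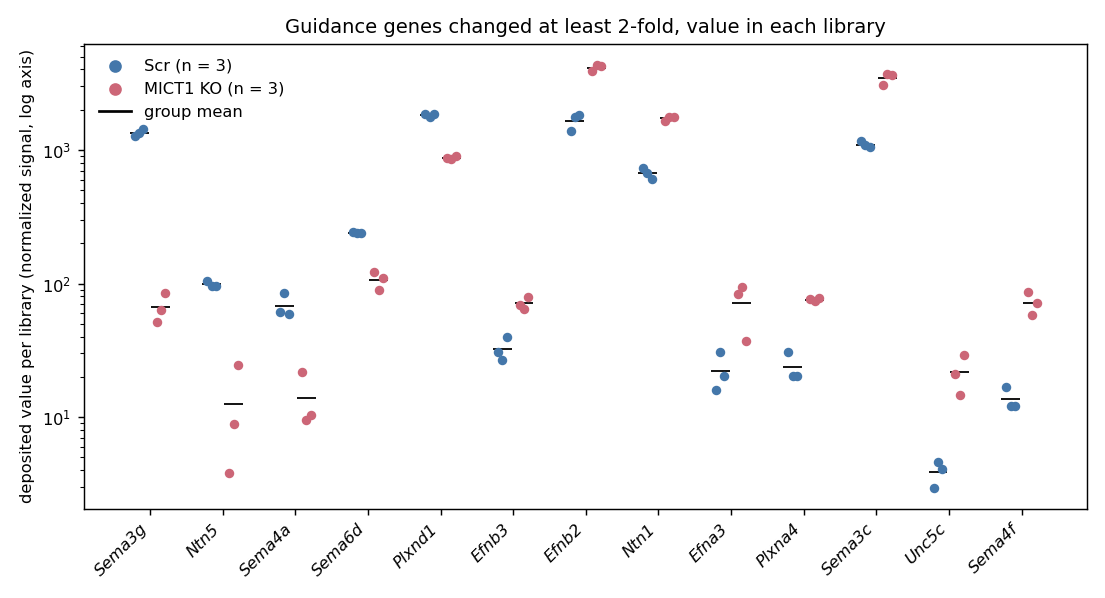
Deposited values (normalized signal per gene, log axis) of the 13 guidance genes called with a change of at least 2-fold, ordered by fold change. Each point is a library, 3 Scr in blue and 3 MICT1 KO in red, and each bar is a group mean. Sema3g lies between 1269 and 1429 in Scr and between 51.5 and 85.0 in MICT1 KO. In none of the 13 genes do the groups overlap, which largely follows from choosing them by adjusted p and fold change. Unc5c, Ntn5 and Sema4a passed the filter through 1 group only.

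The largest fall was in Sema3g, a secreted class 3 semaphorin best known from vessel walls and adipocytes. Its values were 1269, 1333 and 1429 in the Scr libraries against 51.5, 63.2 and 85.0 in the MICT1 KO libraries. Every MICT1 KO library was thus far below every Scr library. The mean fell from 1344 ± 80.4 to 66.6 ± 17.0 (SD, n = 3 each), a log2 fold change of -4.34 (SE 0.147, 95% interval -4.65 to -4.04, adjusted p = 8.07e-16), or 20.3-fold. Sema3g lies on chromosome 14 (31217873 to 31230352, GRCm38, RefSeq). By level per length, in RPKM, it ranked 3 of the 44 guidance genes in Scr against 28 in MICT1 KO.

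Sema3c, another class 3 semaphorin and one that human white adipose tissue is known to secrete, moved the other way. In Scr it measured 1158, 1081 and 1047, and in MICT1 KO 3079, 3718 and 3609, with no overlap. The mean rose from 1095 ± 57.0 to 3469 ± 342 (log2 fold change 1.66, SE 0.0715, 95% interval 1.51 to 1.81, adjusted p = 3.87e-14). The gene lies on chromosome 5 (17574816 to 17730268) and moved from rank 8 to rank 4 among the guidance genes by RPKM.

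The class 3 family as a whole changed its make-up more than its total. Sema3g gave 60.0% ± 1.56 of the summed class 3 RPKM in Scr against 2.64% ± 0.537 in MICT1 KO, whereas Sema3c gave 31.2% ± 2.62 and 87.9% ± 0.0869 (SD, n = 3 each). The summed RPKM of the 6 class 3 genes was 30.1 ± 1.02 in Scr against 33.9 ± 3.52 in MICT1 KO, and the libraries of the groups overlapped in this sum. Per length, the ratio of Sema3g to Sema3c was 1.72, 1.94 and 2.15 in the Scr libraries against 0.0263, 0.0267 and 0.0370 in the MICT1 KO libraries. These shares are descriptions, with no test.

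**Figure D2:**
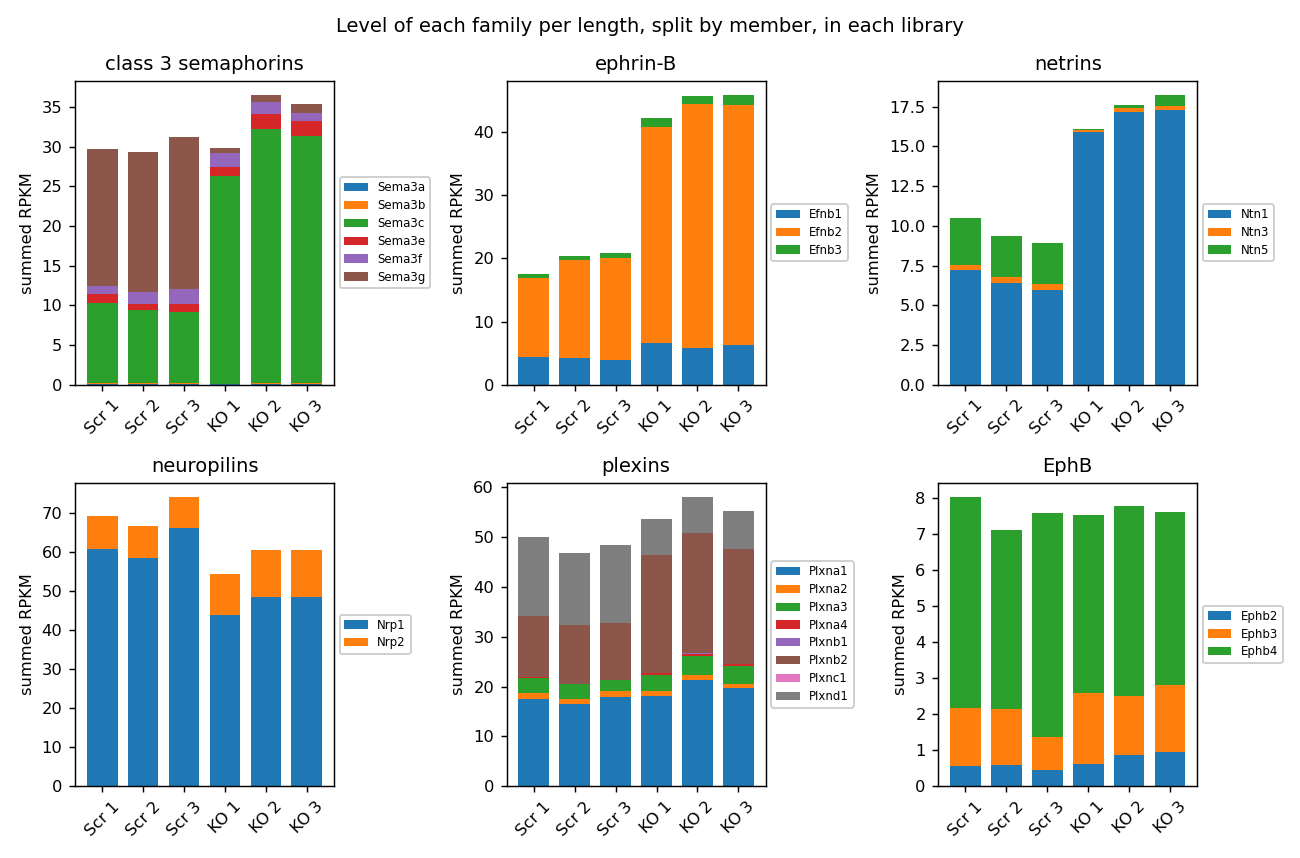
Summed RPKM (vertical axis, each panel on its own scale from 0) in each of the 6 libraries for class 3 semaphorins, ephrin-B genes, netrins, neuropilins, plexins and EphB receptors, with each bar split by gene. In class 3 semaphorins the Sema3g part falls from 60.0% to 2.64% of the bar while the bar's height changes from a mean of 30.1 to 33.9, and in EphB receptors the mean height is 7.58 in Scr against 7.65 in MICT1 KO.

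Of the remaining class 3 genes, Sema3e, the ligand that binds plexin D1 without a neuropilin, also rose. Its values were 160, 122 and 154 in Scr against 159, 278 and 286 in MICT1 KO, so MICT1 KO replicate 1 lay within the Scr range while the other two lay above it (log2 fold change 0.69, SE 0.194, adjusted p = 0.00486). Sema3a, the collapse-inducing semaphorin of axons, was low in both groups, at 22.7 to 26.5 in Scr against 16.2 to 23.8 in MICT1 KO (adjusted p = 0.505). Sema3b and Sema3f, both first described as candidate tumour suppressors, did not pass either, with adjusted p-values of 0.689 and 0.882. Sema3f spread from 84.1 to 161 in Scr and from 79.8 to 153 in MICT1 KO, and the 95% interval of its log2 fold change ran from -0.56 to 0.46.

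The promoters of Sema3g and Sema3c, the class 3 genes with the largest opposite changes, are shown here with those of Plxnd1, the plexin that fell most, and Efnb2, the ephrin-B with the largest rise, both described further on. Each window is the 250 bases before a RefSeq transcript start on the gene's own strand (GRCm38.p6): chr14:31217623-31217872 on the plus strand for Sema3g, chr5:17574566-17574815 on the plus strand for Sema3c, chr6:115995006-115995255 on the minus strand for Plxnd1 and chr8:8661243-8661492 on the minus strand for Efnb2. The Plxnd1 start used lies 334 bases inside the RefSeq gene, which begins farther upstream. Capitals mark matches, on either strand, to the GC box GGGCGG, to the TGACG core of the cAMP response element and to the TATA box TATAAA, where a match on the opposite strand appears as the reverse complement.
Sema3g: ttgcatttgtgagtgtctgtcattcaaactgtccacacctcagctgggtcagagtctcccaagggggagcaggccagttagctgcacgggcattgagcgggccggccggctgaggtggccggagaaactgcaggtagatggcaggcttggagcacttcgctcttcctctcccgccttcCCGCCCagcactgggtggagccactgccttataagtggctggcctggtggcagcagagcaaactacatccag
Sema3c: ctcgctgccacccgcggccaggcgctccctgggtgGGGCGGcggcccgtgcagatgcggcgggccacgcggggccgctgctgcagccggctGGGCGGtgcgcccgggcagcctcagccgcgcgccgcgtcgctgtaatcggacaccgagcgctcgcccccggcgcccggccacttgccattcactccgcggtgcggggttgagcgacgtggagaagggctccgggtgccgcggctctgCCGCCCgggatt
Plxnd1: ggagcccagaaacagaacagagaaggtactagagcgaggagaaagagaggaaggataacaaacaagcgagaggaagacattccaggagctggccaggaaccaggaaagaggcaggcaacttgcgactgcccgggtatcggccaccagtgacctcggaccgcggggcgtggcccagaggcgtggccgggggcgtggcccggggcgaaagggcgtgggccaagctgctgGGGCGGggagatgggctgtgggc
Efnb2: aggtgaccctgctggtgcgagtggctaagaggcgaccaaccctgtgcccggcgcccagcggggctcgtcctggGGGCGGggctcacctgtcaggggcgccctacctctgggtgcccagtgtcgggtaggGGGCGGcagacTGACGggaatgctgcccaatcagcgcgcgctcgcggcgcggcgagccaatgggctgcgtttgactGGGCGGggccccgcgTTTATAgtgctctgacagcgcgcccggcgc

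Sema3g and Plxnd1 each held 1 GC box in these bases, and Sema3c and Efnb2 each held 3. Efnb2 also had 1 TGACG core and, on its other strand, a TATA box. The Sema3c window was 78.4% G and C, against 60.4% for Sema3g, 64.8% for Plxnd1 and 72.0% for Efnb2. Promoter windows of 300 bases (250 before to 50 after the start) were matched for 38 of the 44 guidance genes, and their start was that of the whole RefSeq gene in 22 and another start inside it in 16. The full cAMP response element TGACGTCA was found in 0 of these 38, against 3.24% of the windows of 10578 genes with values. The TGACG core, which the full element contains, was found in 6 of 38 (15.8%, against 32.0%), the E-box CACGTG in 3 (7.89%, against 10.4%), the GC box in 30 (78.9%, against 64.6%) and TATAAA in 1 (2.63%, against 7.24%). A match is a run of letters and not a shown site. The windows of the 5 matched genes that rose at least 2-fold had a median G and C content of 68.3% and a CpG observed-to-expected ratio of 0.752. For the 5 that fell at least 2-fold these were 58.7% and 0.310, where all genes with values had 61.0% and 0.767. Unc5c is among the risen, and Ntn5 (ratio 0.132) and Sema4a (0.151) are among the fallen. These genes passed the filter through 1 group only. The other fallen genes had ratios of 0.310 (Sema3g), 0.659 (Sema6d) and 0.723 (Plxnd1). Over all 16 matched genes called higher the median ratio was 0.689, and over all 11 called lower it was 0.69.

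The class 4 to 7 semaphorins that passed went in both directions in MICT1 KO. These are mainly membrane-bound ligands, and of the 10 tested 5 were lower, 3 higher and 2 did not pass (median log2 fold change -0.33). The calls, with Sema4a among those lower, are 80% of those tested, against 56.9% of all tested genes. Sema4a, known for its action on T cells and on vessels, measured 61.3, 84.4 and 59.0 in Scr against 21.9, 9.48 and 10.4 in MICT1 KO. All 3 MICT1 KO values were below the lowest Scr value (log2 fold change -2.29, SE 0.369, adjusted p = 2.08e-05). Sema4a passed the filter through its Scr libraries, with only 2 MICT1 KO libraries at the minimum, and its call is no support for a difference. In a fit of all listed genes with no filter its adjusted p was 1.5e-05.

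Sema6d, a transmembrane semaphorin that binds plexin A1 in the developing heart, was 244, 240 and 237 in Scr against 122, 89.6 and 110 in MICT1 KO (log2 fold change -1.17, SE 0.161, adjusted p = 2.89e-06). Sema7a, a lipid-anchored semaphorin that signals through integrin beta 1 and plexin C1, fell from 185 ± 25.5 to 112 ± 11.7 (log2 fold change -0.71, adjusted p = 0.00130). Smaller falls were found for Sema6b (log2 fold change -0.53, adjusted p = 0.00403) and Sema4b (log2 fold change -0.32, adjusted p = 0.00828), both transmembrane proteins. The groups did not overlap for any of these 5 genes that fell, which largely follows from choosing them by adjusted p. MICT1 KO lay below Scr without overlap for 31.2% of all tested genes.

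In the same family Sema4f, a transmembrane semaphorin known from neurons and Schwann cells, rose. It measured 16.8, 12.1 and 12.2 in Scr against 86.8, 57.9 and 71.5 in MICT1 KO, with no overlap (log2 fold change 2.31, SE 0.333, 95% interval 1.62 to 3.0, adjusted p = 5.19e-06). Its level stayed low per length, at 0.158 RPKM in Scr against 0.834 in MICT1 KO. Sema6c, another transmembrane member, rose from 68.5 ± 23.6 to 131 ± 21.1 (log2 fold change 0.96, adjusted p = 0.00151).

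Sema4c, a ligand of plexin B2, was the highest of the family per length (in Scr its range overlapped that of Sema4b), at 6.71 RPKM in Scr against 8.19 in MICT1 KO. In each library its values were 544, 516 and 453 in Scr against 592, 621 and 629 in MICT1 KO, so the groups lay close together without overlap (log2 fold change 0.29, adjusted p = 0.0128). A transcript on the opposite strand overlaps 7.27% of its exon length. The call was lost without Scr replicate 3 (log2 fold change 0.21, adjusted p = 0.0747). Sema4g and Sema5a did not pass (adjusted p = 0.194 and 0.644), and Sema4d, which binds plexin B1, was at most 9.27. The summed RPKM of the 11 class 4 to 7 genes was 24.8 ± 1.64 in Scr against 22.3 ± 0.475 in MICT1 KO.

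All 3 ephrin-B genes rose in MICT1 KO. Efnb2, the ligand of EphB4 that marks arterial endothelium, was the most abundant of them and measured 1382, 1772 and 1815 in Scr against 3873, 4313 and 4229 in MICT1 KO. The lowest MICT1 KO value was over the highest Scr value by a wide margin. The mean rose from 1656 ± 239 to 4138 ± 234 (log2 fold change 1.33, SE 0.0810, 95% interval 1.16 to 1.5, adjusted p = 1.18e-11). Per length it went from 14.7 to 37.0 RPKM, the third highest level of the guidance genes in MICT1 KO, and it gave 75.2% of the summed ephrin-B RPKM in Scr against 82.9% in MICT1 KO. Efnb2 lies on chromosome 8 (8617235 to 8661242).

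Efnb3, known from the spinal cord midline, was low, at 30.7, 26.9 and 39.7 in Scr against 69.6, 64.3 and 78.8 in MICT1 KO (log2 fold change 1.12, SE 0.275, adjusted p = 0.00165). Efnb1, the ephrin behind craniofrontonasal syndrome, rose from 236 ± 12.5 to 351 ± 22.5 (log2 fold change 0.57, SE 0.119, adjusted p = 0.000375). No ephrin-B gene had overlapping groups, where MICT1 KO lay above Scr without overlap for 30.9% of all tested genes. The summed ephrin-B RPKM was 19.6 ± 1.8 in Scr against 44.6 ± 2.04 in MICT1 KO.

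Ephrin-A genes did not move together. Of the 5, Efna1 and Efna3 were higher, Efna2 was lower, and Efna4 and Efna5 did not pass. Efna1, an ephrin first found as a gene induced by tumour necrosis factor in endothelial cells, measured 152, 192 and 144 in Scr against 310, 284 and 224 in MICT1 KO (log2 fold change 0.74, SE 0.157, adjusted p = 0.000438). Efna3, a close relative, measured 15.8, 30.6 and 20.4 in Scr against 83.9, 94.8 and 37.3 in MICT1 KO (log2 fold change 1.59, SE 0.364, adjusted p = 0.000869). In both genes the MICT1 KO libraries were above all Scr libraries, with replicate 3 the lowest of the MICT1 KO libraries.

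Efna2, a ligand known from visual maps in the brain, went from 91.0, 81.6 and 77.3 in Scr to 41.0, 56.9 and 40.4 in MICT1 KO (log2 fold change -0.85, SE 0.246, adjusted p = 0.00562). Efna4 measured 38.6, 23.2 and 16.3 in Scr against 50.5, 65.3 and 25.9 in MICT1 KO, and the groups overlapped (log2 fold change 0.83, SE 0.388, adjusted p = 0.0758). Without MICT1 KO replicate 3 Efna4 passed (log2 fold change 1.2, adjusted p = 0.0135), as it did without Scr replicate 1 (1.14, adjusted p = 0.0296). Efna5, which also guides visual axons, was the most abundant ephrin-A per length in Scr at 8.20 RPKM, while in MICT1 KO it stood at 8.68 beside 9.13 for Efna1, with overlapping ranges. Its values of 528, 550 and 545 in Scr against 553, 629 and 532 in MICT1 KO overlapped (95% interval of the log2 fold change -0.12 to 0.27, adjusted p = 0.511). Antisense transcripts overlap 14.1% of the exon length of Efna3 and 10.5% of that of Efna4, and the share of reads they could give was not measured. Efna1, Efna3 and Efna4 are neighbours within 66.3 kb of chromosome 3 (89271730 to 89338028).

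Among netrins, Ntn1 rose and Ntn5 fell. Ntn1, the founding secreted netrin, measured 732, 670 and 611 in Scr against 1640, 1752 and 1764 in MICT1 KO, with a wide gap between the groups. Its mean went from 671 ± 60.7 to 1719 ± 68.6 (log2 fold change 1.36, SE 0.0769, 95% interval 1.2 to 1.52, adjusted p = 3.44e-12), and it gave 68.0% of the summed netrin RPKM in Scr against 96.9% in MICT1 KO. Ntn5 gave 28.4% of that sum in Scr against 1.94% in MICT1 KO. Its value is uncertain, as described below, and so are these shares. Ntn3, a rarer secreted netrin, was 25.7, 28.7 and 32.6 in Scr against 10.5, 20.02 and 18.7 in MICT1 KO. These groups did not overlap, yet the gene did not pass (log2 fold change -0.83, SE 0.400, adjusted p = 0.0833).

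Ntn5, a short member of the family, measured 105, 95.7 and 95.4 in Scr against 3.81, 8.94 and 24.6 in MICT1 KO (log2 fold change -3.22, SE 0.444, 95% interval -4.14 to -2.29, adjusted p = 2.93e-06). It passed the filter only through its Scr libraries, and its call is no support for a difference. In a fit of all listed genes with no filter its adjusted p was 2.01e-06. The MICT1 KO values spread widely among themselves, and without MICT1 KO replicate 3 the log2 fold change was -3.85. Ntn5, on chromosome 7 (45684022 to 45694556), shares 519 exon bases (23.4% of its exon length) with Sec1, a fucosyltransferase gene on the opposite strand. Sec1 measured 126, 162 and 166 in Scr against 31.5, 56.4 and 46.9 in MICT1 KO (log2 fold change -1.76, SE 0.239, adjusted p = 2.45e-06). Ntn5 values corresponded to whole reads in only 1 of the 6 libraries, and whether reads were counted by strand is not given in the sources used here. The Ntn5 value is therefore uncertain, and the part of Sec1 reads in it was not tested.

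**Figure D3:**
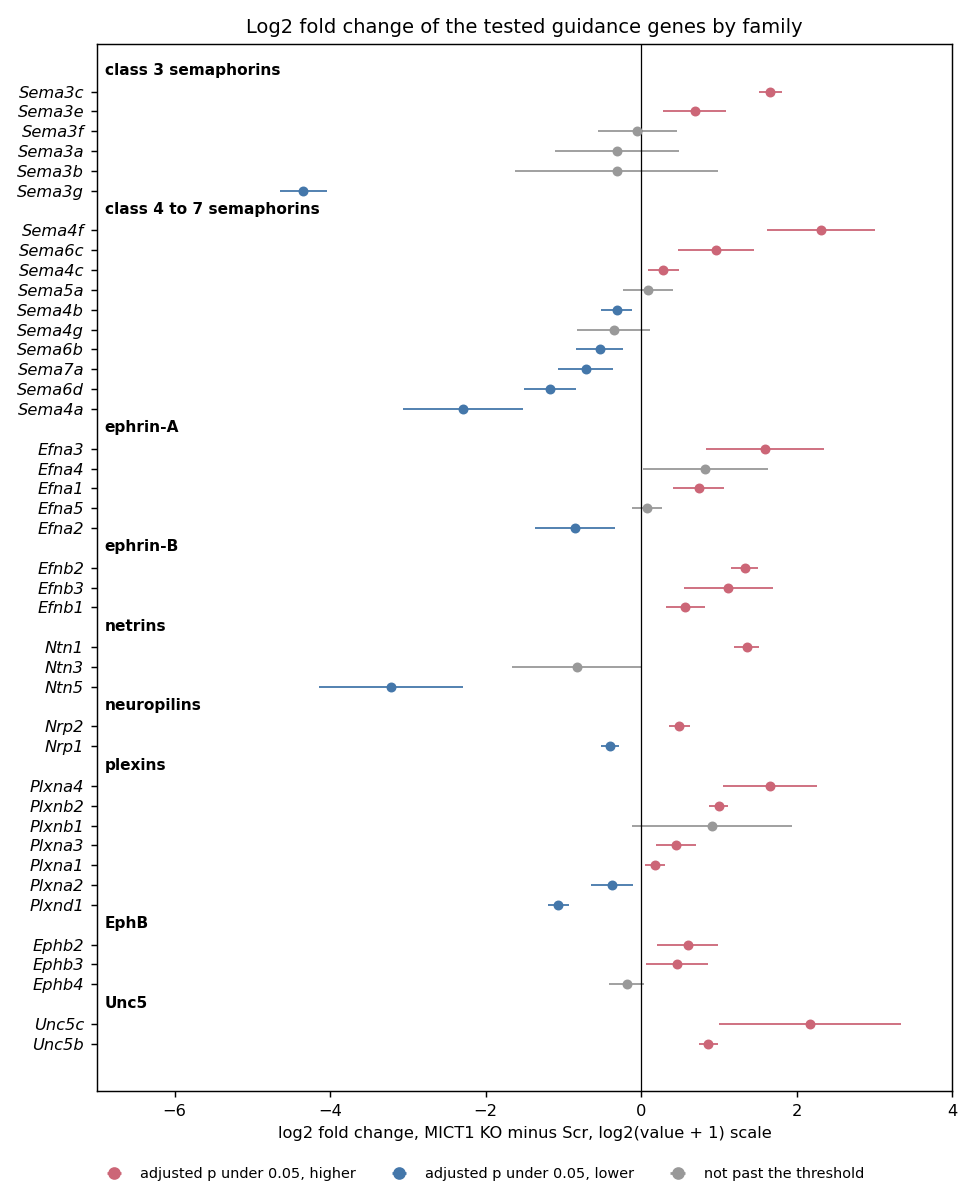
Log2 fold change (MICT1 KO minus Scr, log2(value + 1) scale, horizontal axis) of the 41 tested guidance genes, grouped by family, with 3 libraries per group. Points are estimates and lines 95% intervals from limma-trend, red for adjusted p under 0.05 and higher in MICT1 KO (20 genes), blue for lower (11) and grey for not past the threshold (10). All 3 ephrin-B genes lie to the right of 0, and Sema3g, at -4.34, lies farthest to the left.

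Plexins, the semaphorin receptors, were mostly higher in MICT1 KO. Of the 7 tested, 4 were higher, 2 lower and 1 did not pass (85.7% called, against 56.9% of all tested genes, median log2 fold change 0.45). Plxnd1, the vessel receptor of Sema3e, fell and measured 1867, 1759 and 1865 in Scr against 873, 850 and 900 in MICT1 KO. The spread within each group was small beside the gap between them (log2 fold change -1.06, SE 0.0664, 95% interval -1.20 to -0.93, adjusted p = 1.71e-11). Plxnd1 lies on chromosome 6 (115954811 to 115995339).

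Plxnb2, the receptor of class 4 semaphorins that also binds angiogenin, measured 1519, 1507 and 1441 in Scr against 2995, 3030 and 2883 in MICT1 KO (log2 fold change 1.0, 1.99-fold, SE 0.0587, adjusted p = 6.88e-12). It gave 24.3% of the summed plexin RPKM in Scr against 42.4% in MICT1 KO, while the share of Plxnd1 went from 31.6% to 13.2%. The ratio of Plxnd1 to Plxnb2 per length was 1.23 to 1.37 in the Scr libraries against 0.297 to 0.330 in the MICT1 KO libraries. Plxna1, a co-receptor of neuropilins and the plexin of highest RPKM in Scr (17.3, and 19.7 in MICT1 KO), kept near the same share, 35.7% and 35.4%. It measured 2551, 2470 and 2663 in Scr against 2705, 3131 and 2897 in MICT1 KO (log2 fold change 0.18, SE 0.0623, adjusted p = 0.0167). An antisense transcript overlaps 10.7% of its exon length. The call was lost without Scr replicate 2 (adjusted p = 0.0829) or MICT1 KO replicate 2 (adjusted p = 0.102).

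Plxna4, a plexin of sensory and sympathetic neurons, was rare, at 30.7, 20.4 and 20.4 in Scr against 76.3, 73.8 and 77.7 in MICT1 KO (log2 fold change 1.66, SE 0.290, adjusted p = 5.52e-05). It stood at 0.103 and 0.330 RPKM in these groups. Plxna3, which pairs with neuropilin 2, rose from 340 ± 59.5 to 460 ± 28.5 (log2 fold change 0.45, adjusted p = 0.00411). Plxna2, a receptor of Sema6a, fell from 344 ± 5.40 to 268 ± 48.6 (log2 fold change -0.37, adjusted p = 0.0191), a call lost when Scr replicate 1 or MICT1 KO replicate 1 or 3 was left out (adjusted p = 0.0526 to 0.0803). Plxnb1, the Sema4d receptor, was at most 21.1 and did not pass (adjusted p = 0.123).

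The neuropilins, co-receptors of class 3 semaphorins and of vascular endothelial growth factor, changed in opposite directions. Nrp1 was the guidance gene of highest RPKM in Scr and measured 9571, 9499 and 10592 there and 7048, 7710 and 7682 in MICT1 KO (log2 fold change -0.40, SE 0.0572, adjusted p = 4.40e-06). Nrp2 measured 1622, 1618 and 1539 in Scr against 2059, 2320 and 2341 in MICT1 KO (log2 fold change 0.49, SE 0.0649, adjusted p = 1.71e-06). Neither gene had overlapping groups. Nrp1 remained the larger part, at 88.2% ± 0.920 of the summed neuropilin RPKM in Scr against 80.2% ± 0.341 in MICT1 KO.

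Of the 3 EphB receptors, 2 were higher in MICT1 KO and none changed 2-fold. Ephb4, the receptor of veins that binds Efnb2, was the most abundant of the EphB genes per length, at 5.70 RPKM in Scr against 5.01 in MICT1 KO. It measured 438, 385 and 474 in Scr against 377, 398 and 363 in MICT1 KO, and the groups overlapped (log2 fold change -0.18, 95% interval -0.41 to 0.04, adjusted p = 0.151). The difference between its change and that of Efnb2 was not tested, but the 95% intervals of the log2 fold changes, -0.41 to 0.04 and 1.16 to 1.5, lie apart.

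Ephb2 and Ephb3, receptors that sort cells along the intestinal crypt, were higher in MICT1 KO by small margins. Ephb2 measured 116, 121 and 92.6 in Scr against 130, 180 and 195 in MICT1 KO (log2 fold change 0.60, SE 0.189, adjusted p = 0.0106). Its call was lost without Scr replicate 3 (adjusted p = 0.0524) or MICT1 KO replicate 3 (adjusted p = 0.0643). Ephb3 measured 170, 171 and 98.7 in Scr against 214, 177 and 201 in MICT1 KO (log2 fold change 0.46, SE 0.191, adjusted p = 0.0440), with Scr replicate 3 the lowest library. Without it the log2 fold change was 0.20 (adjusted p = 0.321), and leaving out MICT1 KO replicate 1 or 3 also ended the call (adjusted p = 0.118 and 0.0928). Summed EphB RPKM was 7.58 ± 0.451 in Scr against 7.65 ± 0.136 in MICT1 KO. Of EphA receptors, Epha8 was at 1.98 to 11.1 and was not tested.

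Unc5 receptors of netrins were measured at very different levels. Unc5b, which also acts in vessel sprouting and belongs to the dependence receptors that signal death without ligand, measured 4032, 4083 and 3803 in Scr against 6987, 7727 and 6991 in MICT1 KO. It was higher in MICT1 KO, and no library crossed the gap between the groups (log2 fold change 0.86, SE 0.0564, adjusted p = 3.66e-11). At 38.8 RPKM in Scr against 70.9 in MICT1 KO it passed Nrp1, which stood at 61.7 and 46.9, and became the guidance gene of highest level per length. The library ranges of the pair, 67.9 to 75.9 for Unc5b and 43.8 to 48.4 for Nrp1 in MICT1 KO, did not overlap.

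Unc5c, its relative in cerebellar and motor axons, was near the limit of detection in Scr. It measured 2.97, 4.63 and 4.07 in Scr against 21.0, 14.8 and 29.0 in MICT1 KO, where 3 reads were the fewest in any library and 28 the most. It passed the filter only through its MICT1 KO libraries, and its call is no support for a difference. The log2 fold change was 2.17, and 1.55 with a pseudocount of 5. In a fit of all listed genes with no filter its adjusted p was 0.00111. DCC was not analysed here. Neogenin (Neo1), the other netrin receptor of the DCC type, measured 1765, 1729 and 1872 in Scr against 1840, 1907 and 1932 in MICT1 KO, and the groups overlapped (95% interval of the log2 fold change -0.05 to 0.21, adjusted p = 0.264). Unc50, matched by its letters alone, measured 745, 723 and 726 in Scr against 622, 595 and 625 in MICT1 KO (log2 fold change -0.25, adjusted p = 0.0114).

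Genes that act with these ligands and receptors inside or at the surface of the cell were read from lists of known partners. Of 63 such partner genes, 56 had values and 53 were tested, of which 20 were higher, 16 lower and 17 did not pass (67.9% called, against 56.9% of all tested genes). Their median log2 fold change was 0.07. A change of at least 2-fold was found for 8 higher and 3 lower partners, against 7.99% and 5.76% of all tested genes. Dpysl5 and Mst1r, both among the called partners, passed the filter through 1 group only.

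In the semaphorin and plexin list, 10 of 23 tested genes were higher and 7 lower (73.9% called, against 56.9% of all tested genes). Rnd1, whose protein binds the inner part of plexins, rose most and measured 108, 115 and 81.4 in Scr against 574, 573 and 611 in MICT1 KO (log2 fold change 2.53, SE 0.142, adjusted p = 2.93e-12). Dpysl5 and Dpysl3 belong to the collapsin response mediators, which carry the Sema3a signal to the cytoskeleton. Dpysl3 measured 69.2, 69.5 and 50.9 in Scr against 221, 234 and 208 in MICT1 KO (log2 fold change 1.8, adjusted p = 4.91e-08). Dpysl5 rose from 9.08 ± 1.04 to 37.4 ± 1.63 (log2 fold change 1.93, adjusted p = 0.000373). With Scr values of 8.90, 10.2 and 8.14 it passed the filter through its MICT1 KO libraries, and its call is no support for a difference.

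Limk1, the kinase that phosphorylates the actin-severing protein cofilin, fell most in that list. It measured 7604, 8664 and 8593 in Scr against 2255, 1868 and 2273 in MICT1 KO (log2 fold change -1.96, SE 0.0710, adjusted p = 2.25e-15), while Cfl1, the cofilin gene, rose (log2 fold change 0.49, adjusted p = 8.24e-08). Met and Mst1r, receptor tyrosine kinases that associate with class B plexins, were both lower. Erbb2, another receptor tyrosine kinase on the list, was higher (log2 fold change 0.79, adjusted p = 9.51e-07). Met went from 451 ± 35.8 to 255 ± 1.73 (log2 fold change -0.82, adjusted p = 2.23e-06). Mst1r went from 29.8 ± 5.76 to 12.2 ± 3.84 (log2 fold change -1.24, adjusted p = 0.0157), a call lost without Scr replicate 3 (adjusted p = 0.0729). With MICT1 KO values of 10.5, 9.48 and 16.6 Mst1r passed the filter through its Scr libraries, and its call is no support for a difference. Cfl1 and Erbb2 were named after their values were seen.

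Ephrin and Eph partners were evenly divided, with 6 of 18 tested genes higher, 6 lower and 6 not past the threshold. These calls are 66.7% of those tested, against 56.9% of all tested genes. Rgs3, which links ephrin-B to G protein signalling, measured 26.7, 35.2 and 29.5 in Scr against 111, 61.1 and 79.8 in MICT1 KO (log2 fold change 1.40, adjusted p = 0.000281). Ptpn13, a phosphatase that acts on ephrin-B, rose as well (log2 fold change 0.76, adjusted p = 5.28e-06), and so did Vav3, an exchange factor for Rac, whose call was lost in 4 of the 6 fits that left out a library (log2 fold change 0.44, adjusted p = 0.0329). The largest falls were in adaptors of the same pathway. Anks1, which binds Eph receptors, measured 860, 900 and 1026 in Scr against 496, 454 and 430 in MICT1 KO (log2 fold change -1.01, adjusted p = 6.51e-09). Nck2, the adaptor recruited by ephrin-B, and Itsn1, an exchange factor for Cdc42 downstream of EphB2, had log2 fold changes of -0.92 (adjusted p = 2.80e-09) and -0.83 (adjusted p = 6.48e-10).

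Netrin partners counted 5 higher, 3 lower and 6 not past the threshold among 14 tested genes. At 57.1% called, this list is near the 56.9% of all tested genes. Draxin, a secreted protein that binds netrin and DCC, was 15.8, 13.9 and 19.3 in Scr against 46.7, 52.7 and 63.2 in MICT1 KO (log2 fold change 1.67, adjusted p = 0.000251). Ablim1, an actin-binding LIM protein, rose from 139 ± 25.0 to 339 ± 29.1 (log2 fold change 1.30, adjusted p = 3.04e-07). Fyn, a Src-family kinase on both the netrin and the semaphorin list, measured 713, 665 and 693 in Scr against 1444, 1592 and 1429 in MICT1 KO (log2 fold change 1.11, adjusted p = 4.80e-11). The 3 that fell did so by less. They were Ptk2, the focal adhesion kinase bound by DCC (log2 fold change -0.52, adjusted p = 3.07e-07), Maged1, which binds Unc5 (-0.29, adjusted p = 0.000200), and Appl1, an adaptor of DCC (-0.20, adjusted p = 0.0183), whose call was lost without Scr replicate 3 or MICT1 KO replicate 1.

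**Figure D4:**
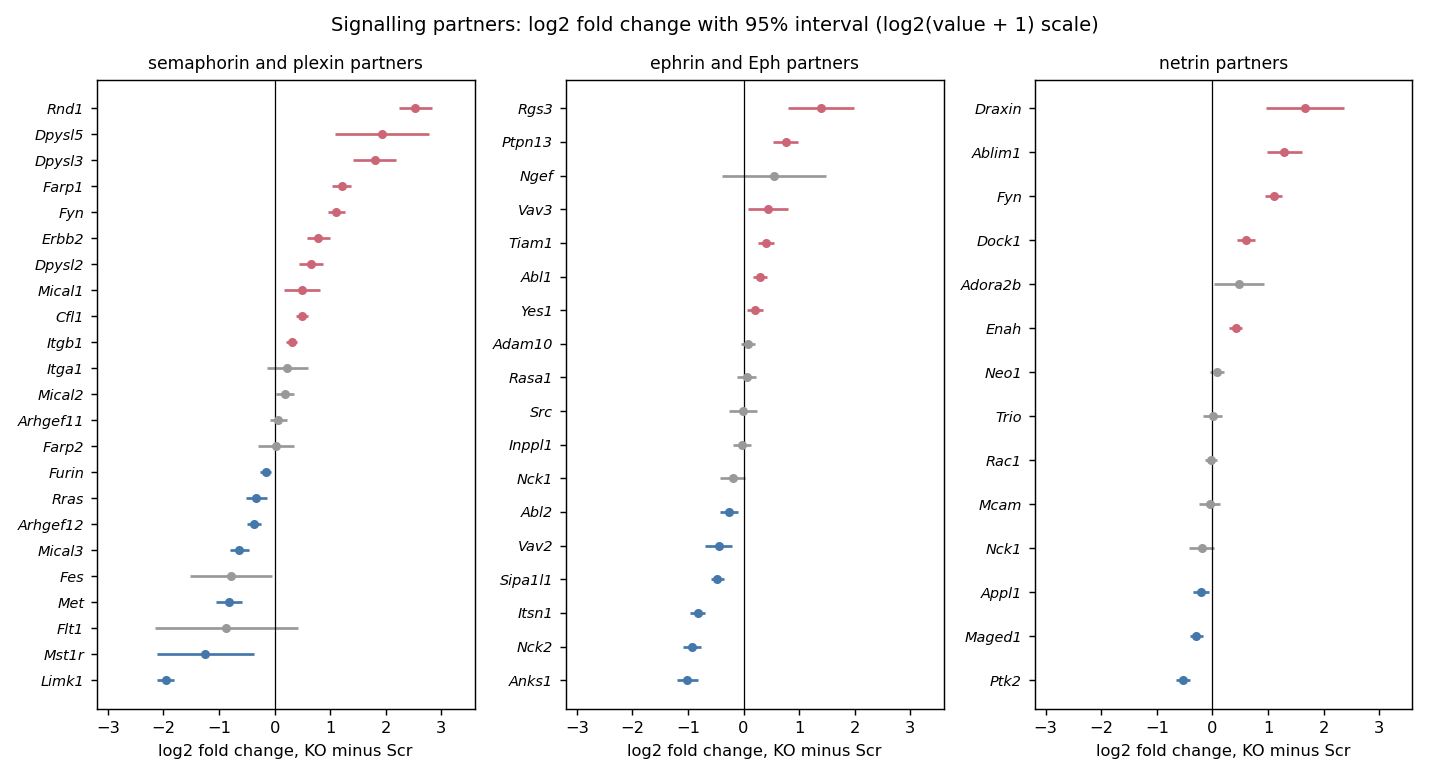
Log2 fold change (MICT1 KO minus Scr, log2(value + 1) scale, horizontal axis) of the tested partner genes in 3 panels, 23 for semaphorins and plexins, 18 for ephrins and Eph receptors and 14 for netrins, with genes on 2 lists drawn in both. Lines are 95% intervals, and colours mark adjusted p under 0.05 and higher (red), lower (blue) or not past the threshold (grey). Rnd1 lies farthest to the right, at 2.53, and Limk1 farthest to the left, at -1.96.

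Endothelial, neuronal, Schwann cell and macrophage markers were also read, since these cells carry the same ligands and receptors in tissue. Endothelial markers with values were Cdh5 and Flt1, 2 of 8, at a sum of 1.06 to 1.35 CPM in Scr against 1.85 to 2.59 in MICT1 KO. The other 6 were not analysed here. Cdh5 was higher (adjusted p = 0.00275) but passed the filter through its MICT1 KO libraries, so its call is no support for a difference. Macrophage markers, 4 of 8, summed to 16.6 to 23.1 and 31.8 to 39.2, with 1 (Cd14) higher and 3 not past the threshold. Schwann cell markers, 4 of 7, summed to 3.81 to 5.03 and 2.17 to 3.54, with 1 of 2 tested genes (Mbp) lower, and neuronal markers, 1 of 8, reached at most 1.17 CPM. Mbp, at 7.26 in MICT1 KO replicate 3, passed the filter through its Scr libraries, and its call is no support either. The part of these lists in the values of the guidance genes was not tested.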

How the data were processed

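RNA-seq of 3 Scr and 3 MICT1 KO libraries was analysed. Per the methods, stranded total RNA libraries were sequenced and the authors aligned reads with Partek to mm10. The submitters' processing notes also name STAR and DESeq2, with no roles given. The labels describe the library preparation differently. Per gene, the authors deposited a normalized signal, taken from its values to be estimated reads divided by a size factor (15445812 to 17925629 reads per library, with 89.1% to 89.6% of values under 1000 within 0.02 reads of a whole number). The normalization is not given in the sources used here, and no listed gene is at 0 in any library.

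Members were found by a symbol pattern, and 1 Eph receptor gene that fits it is not reported here. The members, the partner and marker lists and the tests were chosen with earlier results of these data known. Genes reaching 10 in 3 or more libraries were fitted on log2(value + 1) with limma-trend (limma 3.58.1, R 4.3.3), since the values are not counts, with Benjamini-Hochberg adjustment and a threshold of 0.05. Values are given per library for members past the threshold and at least 2-fold and for the member of highest RPKM in each family, and partners are named for the 3 largest rises and falls per list. The functions were tested on simulated data, in which 198 of 200 changed genes were found with the correct sign, with 11 false calls among 12390 tested genes. The changed genes there were few, above the filter and changed at least 2-fold, with the same dispersion for every gene. In the data 56.9% of tested genes were called, so these error rates do not carry over to small changes or low values. RPKM used the library sum of values and GENCODE vM21 exon lengths, found for 12937 of 13283 genes. Positions and promoters are from RefSeq on GRCm38.p6.

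Alternatives were library-size and TMM scaling, limma-voom, other filters and pseudocounts, a replicate block, each library left out, and the 1.8-fold minimum of the methods (with an unadjusted p and without their RPKM minimum of 4, which was tried apart). An exact test of 3 against 3 libraries cannot go below p = 0.1. The methods call replicates biological, and the labels do not say what separates them. All libraries are from a single cell line, so p-values measure the spread between libraries of that line.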

Additional observations from a re-analysis of the deposited data

How the results depend on the processing

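Counts of guidance, ligand, receptor and partner genes called were the same under library-size scaling, TMM scaling, limma-voom, no filter and pseudocounts of 0.5 and 5 as in the analysis reported. With a filter at a maximum RPKM of 4, which tests only 17 guidance genes and 35 partners, 10 guidance genes were higher and 5 lower, ligands counted 6 and 3, 4 receptors were higher, and 12 partners were higher. A minimum of 1.8-fold with p not adjusted, and no RPKM minimum, gave 11 higher and 6 lower guidance genes, 7 and 5 ligands, 4 and 1 receptors, and 8 and 4 partners. Leaving out each library in turn gave 17 to 21 higher and 10 to 11 lower guidance genes, 10 to 12 and 8 ligands, 7 to 9 and 2 to 3 receptors, and 18 to 21 and 14 to 16 partners. The reversals were all in genes that had not passed: over the fits without 1 library the log2 fold change ran from -0.30 to 0.22 for Sema3f (positive without Scr replicate 2 or 3 or MICT1 KO replicate 3), from -0.63 to 0.27 for Sema3b (positive without MICT1 KO replicate 1) and from -0.027 to 0.22 for Sema5a (negative without MICT1 KO replicate 1). The causes were not tested. Deviations of same-numbered Scr and MICT1 KO libraries correlated at -0.0236, -0.0155 and 0.0637, and those of differently numbered libraries at -0.0431 to 0.0561. The labels do not say whether same-numbered libraries were paired, and values this small cannot settle it. Only the libraries numbered 3 correlated best with each other. With the replicate block, 21 guidance genes and 12 ligands were higher (Efna4 passed, adjusted p = 0.0482), and all other counts stayed as they were. Low genes are limited by depth: Unc5c rests on 3 to 28 reads per library.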
